A study of Mus musculus with 8 samples.

Results

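The Bcl3, NF-kB and IkB family is described here in mammary tumours that carried wild-type or floxed alleles of the transcription factor Stat3. Members were the 10 genes Bcl3, Nfkb1, Nfkb2, Rel, Rela, Relb, Nfkbia, Nfkbib, Nfkbie and Nfkbiz, found as every non-control probe whose deposited gene name was one of these. They had 14 of the 41174 probes on the array, printed as 32 spots, and all 14 passed the filter on dim probes, so 10 of 21556 genes tested were members. All tumours came from virgin female mice carrying MMTV-NIC and were taken 6 weeks after they became palpable. One group held 5 single tumours of genotype Stat3flx/flx/NIC, called floxed here, and the other 3 pools of 5 tumours each of genotype Stat3wt/wt/NIC, called wild type. In MMTV-NIC the MMTV promoter, active in mammary epithelium, drives a single transcript for activated Neu, the rat form of ErbB2, and Cre recombinase. Cells that make this Neu thus also make Cre, and stromal or immune cells without Cre would keep Stat3. Which cells of the floxed tumours had lost Stat3 was not measured. Tumour RNA (Cy5) was hybridised on 8 two-colour arrays against the Stratagene universal mouse reference RNA (Cy3), and a value is the log2 ratio of tumour over reference unless stated otherwise.

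NF-kB is a set of dimers made from the Rel proteins Rela, Relb and Rel and from the processed products of Nfkb1 (p105, cut to p50) and Nfkb2 (p100, cut to p52). The classical IkB proteins encoded by Nfkbia, Nfkbib and Nfkbie hold the dimers in the cytoplasm until IKK kinases mark them for degradation. Bcl3 and Nfkbiz encode atypical IkB proteins that act in the nucleus, where Bcl3 binds dimers of p50 or p52 and can turn them into activators or stabilise repressors. Several members, Nfkbia, Nfkb2 and Relb among them, are themselves induced by NF-kB, and Bcl3 is described as a transcript induced by cytokines through Stat3.

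The readouts of single members rest on short probes, so the sequences of some of them are shown, 5′ to 3′, in lower case because no base is singled out. The Bcl3 probe (chr7:17490887-17490946 of build mm7, minus strand) is given by its first 30 of 60 bases. The probes of Nfkb2 (chr19:46208290-46208429, plus strand) and Nfkbia (chr12:53415998-53416493, minus strand) span more genome than their 60 bases, so each crosses an exon junction. The second Rela probe (chr19:5541942-5542001, plus strand) was printed as 10 spots.
Bcl3 probe, first 30 bases: tccaccctgagggacccagagaaacagagg
Nfkb2 probe: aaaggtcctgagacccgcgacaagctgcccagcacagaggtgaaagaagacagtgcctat
Nfkbia probe: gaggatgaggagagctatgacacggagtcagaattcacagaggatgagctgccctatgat
Rela second probe: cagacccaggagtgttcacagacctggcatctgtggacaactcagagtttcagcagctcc

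Promoters are shown for Bcl3, the member whose groups did not overlap, and for Nfkb2 and Nfkbia, members with NF-kB sites near the start. Each is the 250 bases before the RefSeq transcription start (GRCm38.p6), with matches in capitals on either strand to the STAT palindrome TTCNNNGAA or to the NF-kB consensus of 10 bases. Among 32851 RefSeq start windows of this length, 7.02% held the STAT palindrome and 7.25% the NF-kB consensus. The Bcl3 window (chr7:19822756-19823005, minus strand) held neither, which says only that these letters are not in it. The first of 3 Nfkb2 windows (chr19:46304487-46304736, plus strand) held 1 STAT palindrome, starting 148 bases before the start, and 3 NF-kB matches, starting 39, 38 and 11 bases before it, of which the first 2 overlap. The Nfkbia window (chr12:55492648-55492897, minus strand) held 1 NF-kB match 29 bases before the start. Windows were found for 7 of the 10 members, and Rel held 2 overlapping NF-kB matches, Nfkbie 1, and Rela and Nfkbib none of either motif. A match is a description of letters and not a bound site.
Bcl3, 250 bases before the start: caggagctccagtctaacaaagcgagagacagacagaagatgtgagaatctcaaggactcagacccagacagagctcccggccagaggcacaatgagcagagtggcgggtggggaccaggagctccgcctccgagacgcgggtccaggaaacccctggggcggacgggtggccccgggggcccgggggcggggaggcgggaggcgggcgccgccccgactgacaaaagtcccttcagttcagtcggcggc
Nfkb2, first start, 250 bases before it: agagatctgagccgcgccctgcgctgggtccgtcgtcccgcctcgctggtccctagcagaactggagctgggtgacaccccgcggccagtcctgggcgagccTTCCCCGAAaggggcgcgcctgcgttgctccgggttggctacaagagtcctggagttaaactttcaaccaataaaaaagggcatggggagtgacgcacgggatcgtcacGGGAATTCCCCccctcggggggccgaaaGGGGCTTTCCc
Nfkbia, 250 bases before the start: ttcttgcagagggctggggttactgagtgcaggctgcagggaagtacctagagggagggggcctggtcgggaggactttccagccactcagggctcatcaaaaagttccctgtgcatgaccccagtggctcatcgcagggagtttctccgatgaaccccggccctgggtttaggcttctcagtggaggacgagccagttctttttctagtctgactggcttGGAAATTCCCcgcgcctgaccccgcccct

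The floxed gene was examined first. The log2 ratio of Stat3 was -1.32, -1.33, -1.48, -1.22 and -1.12 in floxed tumours 1 to 5 and 0.12, 0.86 and 1.27 in wild-type pools 1 to 3. Every floxed tumour lay below every pool, at a difference of -2.05 (standard error 0.24, limma adjusted p = 0.109, exact permutation p = 0.0179). The first probe stayed bright on every array, with a lowest raw tumour signal of 7242.5 against a median background of 57.7. A second Stat3 probe differed by -0.60 with overlapping groups, and the sources used here do not give the position of the probes relative to the deleted exons. Across arrays the median tumour signal was 642 to 891 against background medians of 47 to 58, and log2 ratios of different arrays correlated at 0.848 to 0.964. The arrays lay on 3 slides, each with 1 pool: tumours 4 and 5 with pool 1, tumour 1 with pool 2, and tumours 2 and 3 with pool 3. All 12 luminal epithelial markers were measured, Krt8, Krt18 and Epcam among them. In bulk tumours, fewer cells of a type and less RNA per cell cannot be told apart, and p-values reflect only how these samples differ, single tumours on 1 side and pools on the other.

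Bcl3 was lower in the floxed tumours than in the wild-type pools by a log2 difference of -1.30, or 2.46-fold. Its log2 ratio was -1.19, -0.81, -1.35, -1.58 and -1.66 in floxed tumours 1 to 5, a mean of -1.32 ± 0.34 (SD, n = 5). It was -0.29, -0.46 and 0.70 in wild-type pools 1 to 3, a mean of -0.02 ± 0.63 (SD, n = 3). The 5 floxed tumours lay below the 3 pools without overlap, with floxed tumour 2 nearest to the pools and pool 3 standing above pools 1 and 2. The standard error was 0.29 and the 95% interval -1.97 to -0.63. The limma p was 0.00171 before adjustment and 0.942 after Benjamini-Hochberg adjustment over all genes, so Bcl3 did not pass the threshold of 0.05. The two-sided exact permutation test over 56 assignments of the 8 samples gave p = 0.0179, unadjusted and the smallest that 56 assignments allow. This test, here and for other genes, shuffled samples across slides and treated single tumours and pools as exchangeable. Shuffling only within slides would leave fewer assignments and allow no p this small. Ranked by limma p, Bcl3 was number 35 of 21556 genes, and 0.557% of genes had a difference at or below that of Bcl3.

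The size of the Bcl3 difference rested in part on wild-type pool 3. Without it the difference was -0.94 (limma adjusted p = 1.00, p before adjustment 0.00481) and the groups still did not overlap. Leaving out any of the other 7 samples gave -1.53 to -1.22. Within slides, the floxed tumours minus the pool on the same slide gave -1.33, -0.73 and -1.78 for pools 1, 2 and 3, the same direction on each. A limma fit that blocked on slide gave -1.33 (adjusted p = 0.497). In the tumour channel, without the reference, it was -1.39, and in the authors' deposited table -1.30.

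Pool 3 also stood apart in markers of epithelial type. Relative to the mean of the pools, the basal and myoepithelial list (7 of 7 measured) had a median of 1.28 in pool 3, -0.43 in pool 1 and -0.79 in pool 2. In floxed tumours 1 to 5 it was -0.53, 0.05, -0.78, -0.70 and -1.07. Its summed tumour-channel signal was 82290 to 96340 in floxed tumours and 59480 to 84970 in pools, so the sum and the median differ in direction. The luminal list had a median of 0.42 in pool 3, -0.21 in pool 1 and -0.12 in pool 2, with summed signals of 658400 to 763800 in floxed tumours and 662300 to 769000 in pools. The part of epithelial makeup in the Bcl3 difference was not tested.

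**Figure D1:**
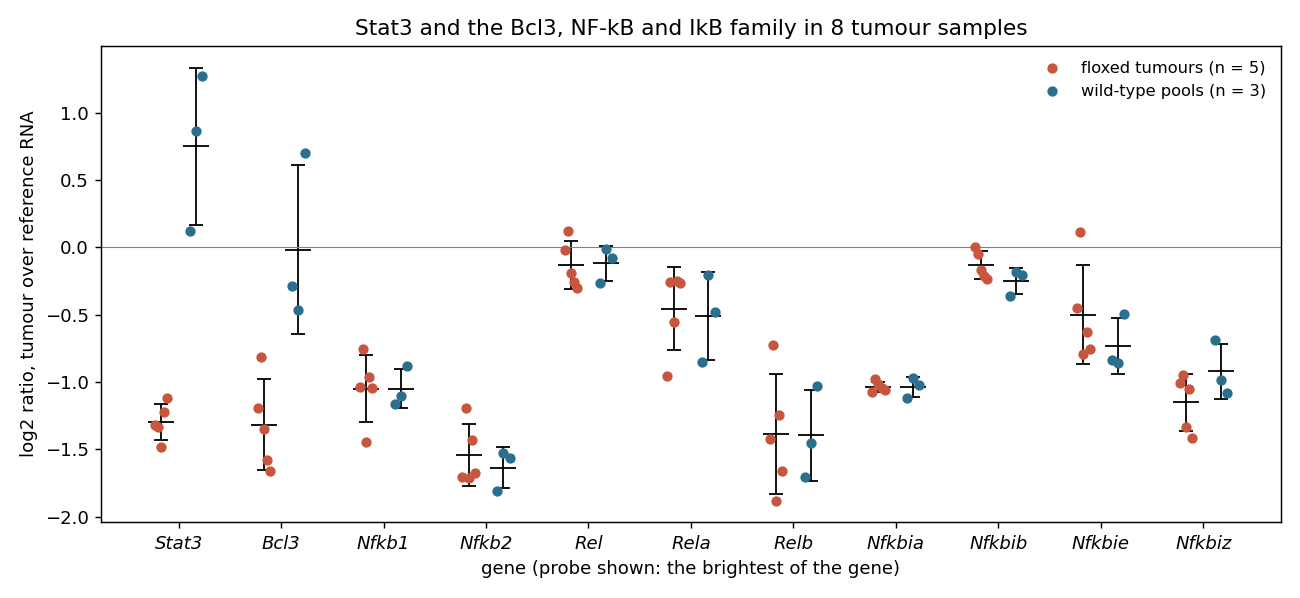
Log2 ratio of tumour over reference RNA (y axis) for Stat3 and the 10 members (x axis), with 5 floxed tumours in red and 3 wild-type pools in blue; black bars are the mean ± 1 SD. Stat3 and Bcl3 are separated by group, the floxed tumours being lower, while the groups of the other 9 members overlap.

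The other 9 members did not show a difference of this size. The member nearest to Bcl3 in kind, Nfkbiz, encodes IkB-zeta, a nuclear cofactor for secondary response genes such as Il6. Its log2 ratio was -1.01, -0.94, -1.33, -1.05 and -1.42 in floxed tumours 1 to 5 and -0.69, -0.98 and -1.08 in pools 1 to 3. Tumours 3 and 5 lay below all pools, pool 1 above all tumours, and the rest overlapped. The difference was -0.23 with a 95% interval of -0.61 to 0.14 (limma adjusted p = 0.942, exact permutation p = 0.232). It was -0.12 without pool 1 and -0.55, -0.02 and -0.06 within the slides of pools 1, 2 and 3.

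Of the classical IkB genes, Nfkbia, which encodes IkB-alpha, the fast feedback inhibitor of NF-kB, had the most even values. Its log2 ratio was -1.08, -0.98, -1.02, -1.04 and -1.06 in floxed tumours 1 to 5 and -1.12, -0.97 and -1.02 in pools 1 to 3. The means were equal to 2 decimals, at -1.03 ± 0.04 (SD, n = 5) and -1.03 ± 0.08 (SD, n = 3), and the 95% interval of the difference was -0.26 to 0.26 (limma adjusted p = 1.00). The range over the 8 arrays was 0.15, against a median of 0.879 over all genes with a value on every array, and 0.131% of these genes had a range as small. The probe was bright, with raw tumour signals of 29990 to 42947, and was not called saturated on any array. The evenness depended on the normalization: the range was 0.72 when arrays were centred on their medians and no loess was used, while it was 0.22 with the scanner software's processed signals and 0.15 in the authors' deposited table.

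Nfkbib, which encodes IkB-beta, an inhibitor of slower turnover, also varied little. Its log2 ratio was 0.00, -0.05, -0.17, -0.21 and -0.23 in floxed tumours 1 to 5 and -0.36, -0.18 and -0.21 in pools 1 to 3. Tumours 1 to 3 lay above all pools and pool 1 below all tumours, with a difference of 0.12 (95% interval -0.17 to 0.40, limma adjusted p = 0.949). Nfkbie, which encodes IkB-epsilon, was more spread. Its log2 ratio was -0.45, 0.11, -0.79, -0.63 and -0.75 in floxed tumours 1 to 5 and -0.84, -0.86 and -0.49 in pools 1 to 3. Floxed tumour 2 stood highest and pool 2 lowest, with a difference of 0.23 (95% interval -0.28 to 0.73, limma adjusted p = 0.943). Without floxed tumour 2 it was 0.08, and without pool 3 it was 0.35 and the groups did not overlap.

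Nfkb1 and Nfkb2, which encode the precursors whose products Bcl3 binds, had overlapping groups. The log2 ratio of Nfkb1 was -1.03, -0.76, -1.44, -0.96 and -1.04 in floxed tumours 1 to 5 and -1.16, -1.10 and -0.88 in pools 1 to 3. Floxed tumours held both the highest value (tumour 2) and the lowest (tumour 3), and the means were -1.05 ± 0.25 (SD, n = 5) and -1.05 ± 0.15 (SD, n = 3). The 95% interval of the difference was -0.39 to 0.39 (limma adjusted p = 1.00), and spots of this probe on 1 array, 10 in all, had SDs of 0.0284 to 0.0607. Nfkb1 had 3 further probes designed on cDNA clones within the locus, 1 of them of a clone the file calls unclassifiable. They differed by -0.09, -0.10 and 0.14 with overlapping groups, and correlated with the first probe over the 8 arrays at 0.745, 0.575 and 0.568. The log2 ratio of Nfkb2 was -1.70, -1.19, -1.71, -1.43 and -1.67 in floxed tumours 1 to 5 and -1.81, -1.53 and -1.57 in pools 1 to 3. Tumour 2 was highest and pool 1 lowest, and the difference was 0.09 (95% interval -0.28 to 0.47, limma adjusted p = 0.976). Within the slides of pools 1, 2 and 3 Nfkb1 gave 0.16, 0.07 and -0.22 and Nfkb2 0.26, -0.18 and 0.12.

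The Rel proteins carry the activation domains of NF-kB. Rela, which encodes p65, the main activating subunit of the classical pathway, was measured by 2 probes. The first gave -0.95, -0.25, -0.56, -0.25 and -0.26 in floxed tumours 1 to 5 and -0.85, -0.20 and -0.48 in pools 1 to 3. Tumour 1 and pool 1 were low together, and the difference was 0.06 (95% interval -0.44 to 0.55, limma adjusted p = 0.984). The second probe differed by 0.15 and followed the first over the 8 arrays at a correlation of 0.962, so the low values of tumour 1 (-0.99) and pool 1 (-1.15) were seen by both probes. Within the slides of pools 1, 2 and 3 the first probe gave 0.59, -0.75 and 0.07, with no common direction.

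Relb, the partner of p52 in the non-canonical pathway, had the widest range of the NF-kB subunits, 1.16 over the 8 arrays. Its log2 ratio was -1.43, -0.72, -1.88, -1.24 and -1.66 in floxed tumours 1 to 5 and -1.71, -1.45 and -1.03 in pools 1 to 3. Tumour 2 was highest and tumour 3 lowest, with the pools between them and a difference of 0.01 (95% interval -0.60 to 0.62, limma adjusted p = 0.999). Rel, which encodes c-Rel, a subunit used mostly in lymphoid and myeloid cells, was dim. Its probe was well above background on 3 of 8 arrays (2 floxed tumours and 1 pool), with raw tumour signals of 94.6 to 153, and its difference of -0.01 (95% interval -0.35 to 0.33) carries little information.

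Read together, 4 of 10 members were lower in floxed tumours and 6 higher, where 52.6% of all genes were lower. At an unadjusted limma p under 0.05 there was 1 of 10 members, Bcl3, which was lower, and 0 were higher. Over all genes these shares were 4.97% in either direction, 3.36% lower and 1.61% higher. None of the members passed the adjusted threshold, which 0.00464% of genes did. The groups did not overlap for 1 member, against 3.14% of genes (2.14% lower and 0.993% higher). The median difference was 0.01 over members and -0.01 over all genes. For each of the other 9 members the lower end of the 95% interval, between -0.61 and -0.17, lay above the Bcl3 difference of -1.30. That difference has its own error: its 95% interval reached -0.63, close to the lowest of these ends, and it was -0.94 without pool 3. The Rel interval carries little information because its probe was dim. With processed signals Rel differed by -0.15 with a standard error of 0.36, against 0.15 as reported. A p that misses the threshold does not show equal levels, and smaller differences within these intervals were not detectable with 8 arrays.

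**Figure D2:**
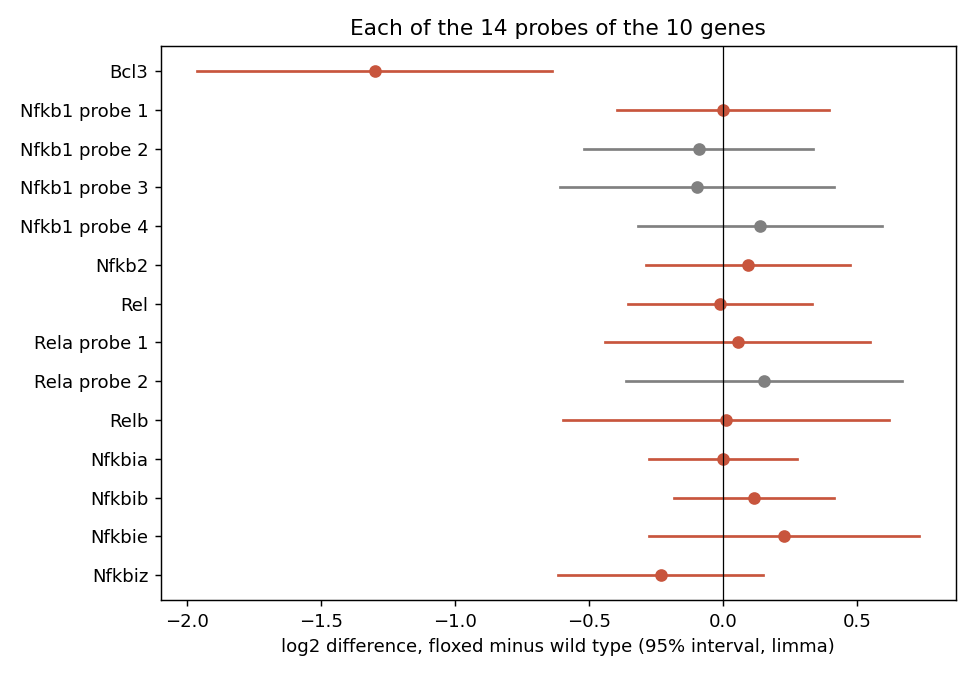
Log2 difference of floxed tumours minus wild-type pools (x axis) with 95% limma intervals for the 14 member probes (y axis); red marks the probe that stands for the gene, and grey its further probes. The Bcl3 interval from the fit over probes, -1.96 to -0.64, lies below 0, and those of the other 13 probes include 0.

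For each of the 9 members other than Bcl3, the range over the floxed tumours exceeded the difference between the group means. The median absolute difference of all genes was 0.157 and their median SD over floxed tumours 0.279, so this is not particular to the members. Floxed tumour 2 had the highest value of the 8 samples for Nfkb1, Nfkb2, Rel, Relb and Nfkbie. Relative to the mean of the pools it stood at 0.84 for Nfkbie, 0.68 for Relb and 0.45 for Nfkb2, and 8 of 10 members were above that mean. Floxed tumour 3 was lowest for Nfkb1 (-0.40) and Relb (-0.48). Pool 3 was above the mean of the pools for 9 of 10 members, Nfkbiz being the exception, but by 0.07 or less for Nfkb2, Rel, Rela, Nfkbia and Nfkbib. The shares of all genes above that mean in floxed tumour 2 and in pool 3 were not computed, so these counts are description only.

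Markers of other cell types were also high in floxed tumour 2. Fibroblast markers (10 of 10 measured) had a median of 1.88 relative to the mean of the pools, against -0.53 to 0.38 in the other floxed tumours. Macrophage and monocyte markers (13 of 14 measured) had a median of 0.868 there and of -0.66 in floxed tumour 3. The summed tumour-channel signal of the fibroblast list was 174800 to 491300 in floxed tumours and 187300 to 259500 in pools, and that of the macrophage list 167000 to 370300 and 227600 to 285200. The dendritic cell list (8 of 9 measured) had a median of 0.717 and the endothelial list (9 of 9) 0.485 in floxed tumour 2. The part of these cells in the member levels was not tested.

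**Figure D3:**
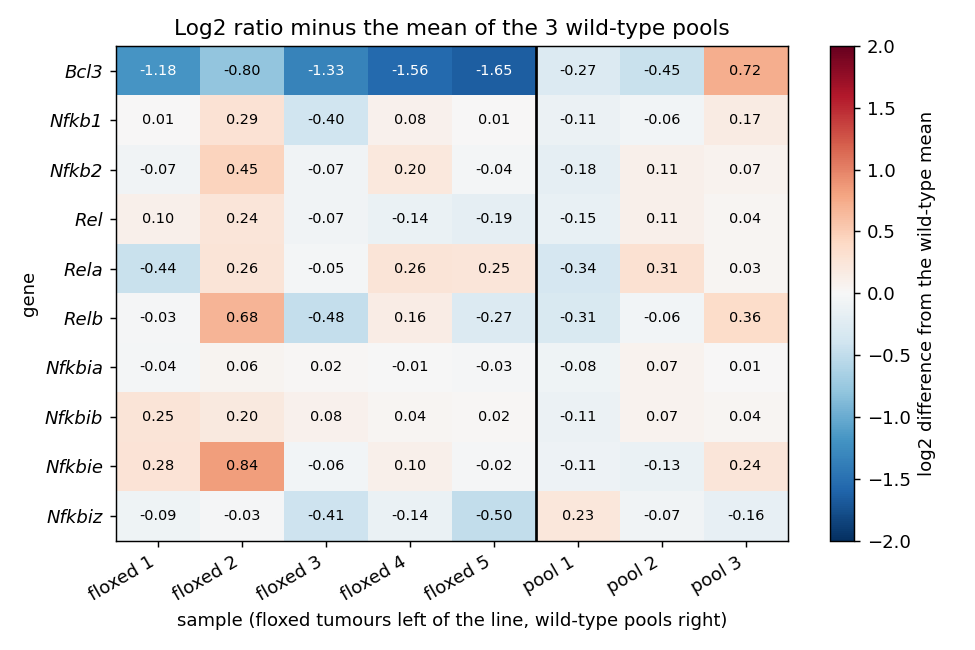
Log2 ratio of each member (rows) minus its mean over the 3 wild-type pools, in each of the 8 samples (columns), with the value in each cell; red is higher and blue lower. Bcl3 is below that mean in all 5 floxed tumours (-1.65 to -0.80), and Relb (0.68) and Nfkbie (0.84) stand highest in floxed tumour 2.

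Relb and Nfkb1 followed each other over the 8 samples, with the same order of samples apart from floxed tumour 5 and pool 2. The pair was picked after its values were seen. Pearson's r was 0.914 (permutation p = 0.00117, adjusted over the 36 pairs of the 9 members other than Bcl3 0.0420). Positive values were general, with r above 0 in 32 of the 36 pairs and a median r of 0.441, and the p-values are against an r of 0. With Bcl3 included there were 45 pairs, 39 with r above 0, and the median r was 0.353. Adjustment over all 45 pairs was not run, and it would be stricter. The adjusted p of 0.0420 for r holds only for the 36 pairs without Bcl3. It lies close to 0.05, so the pair is not said to pass among all 10 members. Spearman's rho of Nfkb1 and Relb was 0.976 (permutation p = 0.000397, adjusted over the 36 pairs 0.0143). Without the 2 samples farthest from the median of Nfkb1 r was 0.890, and without floxed tumour 2 it was 0.876. With 1 sample left out the adjusted permutation p was 0.0357 to 0.214, and under 0.05 only without floxed tumour 3 or 5. With each slide centred on its own mean r was 0.969, and each slide holds too few samples for a value of its own. The adjusted p was not under 0.05 with the processed signals (0.141), no background correction (0.0728), the tumour channel alone (0.124) or the authors' deposited table (0.0594), where r was 0.854 to 0.885. The further Nfkb1 probes followed Relb at 0.700, 0.492 and 0.358. With the mean of the Nfkb1 probes r was 0.668 (adjusted permutation p = 0.249). No other pair of the 36 had an adjusted p under 0.05: Relb with Nfkb2 had r = 0.859 (adjusted permutation p = 0.0827) and Relb with Nfkbie 0.852 (0.0827). The samples share the reference RNA, the normalization and the cell mixtures given above.

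**Figure D4:**
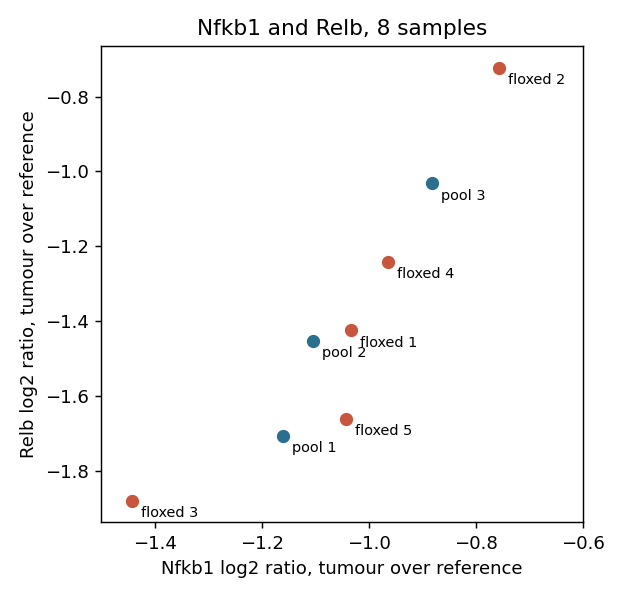
Log2 ratios of Nfkb1 (x axis) and Relb (y axis) in 5 floxed tumours (red) and 3 wild-type pools (blue). Samples run from floxed tumour 3 (-1.44 and -1.88) to floxed tumour 2 (-0.76 and -0.72), with the genotypes mixed between them.

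Bcl3 did not share this pattern: all floxed tumours lay below the pools, and pool 3 was highest. The 3 genes most like it by Pearson correlation over the 8 arrays, among 21452 other genes with a value on every array, were Clca3a2 (r = 0.972), Fgd3 (0.971) and 2600006K01Rik (0.970). Clca3a2 encodes a member of the family of calcium-activated chloride channel regulators, and Fgd3 a guanine nucleotide exchange factor of Cdc42. Their differences were -5.34 for Clca3a2 (limma adjusted p = 0.128), -0.67 for Fgd3 (0.832) and -0.38 for 2600006K01Rik (0.942). The groups of each did not overlap, against 3.14% of all genes. Picking genes for likeness to Bcl3, whose groups are apart, largely fixes this, so it is no further finding. The Clca genes are close paralogs, and cross-hybridisation of the Clca3a2 probe was not tested. Those most like Nfkbiz were LOC219180 (r = 0.971), C1d (0.965) and Cfap300 (0.955), each with overlapping groups. The samples fall into 2 groups on Bcl3, so its correlations serve here as a measure of likeness.

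Relb and Bcl3 lie 202 kb apart on chromosome 7 (probe positions on mm7), and Relb differed by 0.01. Of the 18 other genes with a probe within 250 kb of the Bcl3 probe, a window chosen after the values were seen, 5 were lower and 13 higher in floxed tumours, with a median difference of 0.04. Nectin2, listed also under its former symbol Pvrl2, was counted once. At an unadjusted limma p under 0.05, 0 of them were lower and 1 was higher, Tomm40, a mitochondrial import channel gene, at 0.67. The shares of all genes at that threshold were 3.36% lower and 1.61% higher, and 52.6% of all genes had a difference below 0. Some of the neighbours are cDNA entries without a gene name. A shared effect on the region was not tested.

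Genes around the members in the pathway were read from lists of their roles, and each list is described by counts alone. The shares of all genes at an unadjusted limma p under 0.05, to set beside these counts, were 3.36% lower and 1.61% higher. Among other IkB-type proteins and regulators, 20 of 21 were measured, 9 lower and 11 higher, with a median difference of 0.03 (-0.04 without pool 1 and -0.08 with median centring, against -0.05 over all genes). At an unadjusted limma p under 0.05 there were 1 lower and 2 higher, and 0 passed adjusted over all genes. Nfkbid, which encodes IkB-NS, the third atypical nuclear IkB, had ratios of -0.05, -0.03, 0.23, -0.01 and 0.31 in floxed tumours 1 to 5 and -0.24, -0.14 and -0.48 in pools 1 to 3. Its groups did not overlap, with the floxed tumours above the pools by 0.38 (standard error 0.15, limma adjusted p = 0.942), opposite in direction to Bcl3. Its groups overlapped in the tumour channel alone. The difference was 0.28 without pool 3 and 0.38, 0.09 and 0.58 within the slides of pools 1, 2 and 3. Nkap, which encodes a nuclear protein first described as an NF-kB activator, differed by -0.50 (standard error 0.16, limma adjusted p = 0.942). Its groups were apart by little (0.059 in floxed tumour 4 and 0.061 in pool 2) and overlapped with normexp offset 0, with median centring, in the tumour channel alone and in the authors' deposited table. The other gene was Rbck1, a subunit of the linear ubiquitin ligase, at 0.45 with overlapping groups, named after its value was seen.

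Of the ligands and receptors upstream of NF-kB, 36 of 38 were measured, 20 lower and 16 higher, with a median of -0.06 (0.14 without pool 3), and 2 were lower and 1 higher at an unadjusted limma p under 0.05 (0 adjusted). Il18r1, a chain of the interleukin-18 receptor, had ratios of 1.46, 1.82, 0.41, 1.47 and 0.57 in floxed tumours 1 to 5 and 2.53, 2.31 and 4.81 in pools 1 to 3. The floxed tumours lay below the pools by -2.07 (standard error 0.58, limma adjusted p = 0.942), and by -1.27 without pool 3, which stood far above the other pools. Ltb, which encodes lymphotoxin beta, a ligand of the non-canonical pathway, was higher in the floxed tumours by 0.67 (standard error 0.28, limma adjusted p = 0.942) without overlap, and by 0.29 without pool 3. The Ltb groups overlapped with the processed signals and with median centring. Lymphocytes are a main source of Ltb. Of the T and natural killer cell list (13 of 15 measured), 11 were higher in floxed tumours and 2 lower. At an unadjusted limma p under 0.05, 3 of them were higher and 0 lower (0 adjusted), Nkg7 at 0.69, Il2rb at 0.54 and Ncr1 at 1.00, the last with overlapping groups, all named after their values were seen. The CD3 chain genes Cd3d, Cd3e and Cd3g, also named afterwards, differed by 0.16, -0.06 and 0.08 with overlapping groups. The summed tumour-channel signal of that list was 23570 to 27500 in floxed tumours and 20740 to 25330 in pools, and that of the B and plasma cell list (6 of 8 measured) 24670 to 33300 and 29740 to 36270. The part of lymphoid cells in the Ltb difference was not tested. Cd14, the lipopolysaccharide co-receptor, differed by -0.96 with overlapping groups, and was named after its value was seen.

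Of the IKK kinases, adaptors and upstream kinases, all 31 were measured, 19 lower and 12 higher, with a median of -0.12 (0.01 without pool 3). At an unadjusted limma p under 0.05, 1 was lower, Irak2 at -0.53 with overlapping groups, and 0 were higher (0 adjusted). Myd88, the adaptor of Toll-like and interleukin-1 receptors, differed by -0.26 without overlap, at a limma p of 0.0846 before adjustment that missed the threshold. Genes described as NF-kB targets were measured for 30 of 35, 10 lower and 20 higher, with a median of 0.18 (0.06 without floxed tumour 2). There 0 were lower and 2 higher at an unadjusted limma p under 0.05 (0 adjusted), Plau, the urokinase protease, at 1.23 and Tap1, the peptide transporter for MHC class I, at 0.86, each with overlapping groups. The median of the target list was 0.59 in floxed tumour 2 and 0.29 in floxed tumour 1, against -0.11 to 0.07 in the other floxed tumours. Adipocyte markers (6 of 7 measured) were high in the same tumours, at a median of 2.01 in tumour 1 and 0.589 in tumour 2 against -1.26 to -1.07 in the others. Pool 1 stood between these 2 tumours at 0.794, where the target list was at -0.0472. The summed tumour-channel signal of the adipocyte list was 21930 to 99050 in floxed tumours and 34350 to 58330 in pools. Other lists were also higher in tumours 1 and 2 than in the other floxed tumours. Their medians there were 0.306 and 0.868 for macrophage, 0.44 and 0.717 for dendritic cell, and 0.38 and 1.88 for fibroblast markers. The endothelial list did not set tumour 1 apart (0.187, against 0.253 in tumour 5). The part of any of these cells in the target list was not tested. Irak2, Myd88, Plau and Tap1 were named after their values were seen. The 11 partners and co-regulators of Bcl3, such as the acetyltransferase Kat5 and the kinase Gsk3b, were all measured, 5 lower and 6 higher, with a median of 0.02 (-0.06 without pool 1 and -0.09 with median centring). At an unadjusted limma p under 0.05 the count was 0 (0 adjusted), and Cyld stands in this list and among the regulators.

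**Figure D5:**
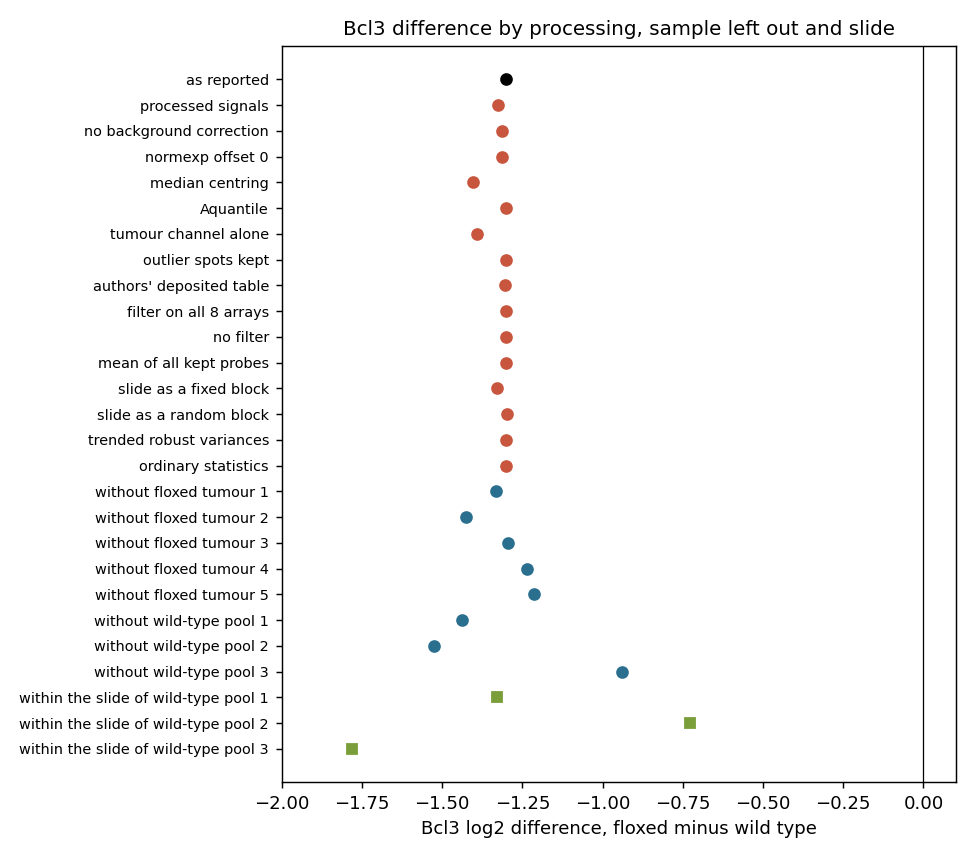
Bcl3 log2 difference of floxed tumours minus wild-type pools (x axis) as reported (black), under other processing (red), with 1 sample left out (blue) and within each slide (green squares). All values lie below 0, between -1.78 and -0.73, and the value without wild-type pool 3 (-0.94) is the nearest to 0 among those with 1 sample left out. Several red points equal the reported value because that processing left the Bcl3 log2 ratios as they were.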

How the data were processed

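Per the file headers, each deposited spot intensity was extracted by the Agilent software, version 9.5.3.1 (protocol GE2-v5_95_Feb07, design 014868, build mm7). A further table deposited by the authors is in log2 units. The tools in the submitters' processing notes are Agilent Feature Extraction and RMA. The table's columns followed each array's tumour over reference ratio (r from 0.989 to 0.994), with medians from 0.00215 to 0.0105; its normalization and centring stay unknown, so it served as an alternative.

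Mean signals were corrected with normexp (offset 50) and loess within arrays, with control spots at weight 0 and outlier-flagged spots left out (limma 3.58.1, R 4.3.3). Spots of a probe were averaged. Probes well above background in the tumour channel on at least 3 arrays were kept, 31315 in all, and a gene was represented by its brightest probe, with symbols from the accession, then the current symbol, then the file; 823 of the 21556 names are former symbols of another gene tested and were counted apart. limma's moderated test was two-sided, and Benjamini-Hochberg adjustment covered all genes (31302 probes for probe values), with a threshold of 0.05. The model was tested on simulated data. Intervals are limma's at 95%. Named were the members, Stat3, genes of the 5 pathway lists (not the cell type markers) with an unadjusted p under 0.05 and no overlap, at most 3 per direction, and the 3 genes most like Bcl3 and Nfkbiz. Members and lists were chosen with earlier results of these data known. Dyes were never swapped.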

Additional observations from a re-analysis of the deposited data

Results flagged for a closer look

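In 42 sets of values over the 5 floxed tumours, 2 had 1 tumour apart from the rest by Dixon's test at its 95% critical value (0.71 for 5 samples), where chance gives about 2.1. The median of the IKK kinase and adaptor list, relative to the mean of the pools, stood at -0.215 in floxed tumour 1, below the other 4 (-0.0981 to -0.0695). The median of the skeletal muscle markers stood at 2.28 in floxed tumour 5, above the other 4 (-0.207 to 0.504). None of the 10 members had such a tumour.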

How the results depend on the processing

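Bcl3 was below 0 in each of 15 alternatives (-1.41 to -1.30, limma adjusted p 0.497 to 1.00), with 1 sample left out (-1.53 to -0.94) and within slides. In Aquantile scaling, outlier spots kept, the filter on 8 arrays, no filter, mean of probes, trended robust variances and ordinary statistics its estimate could not move. Bcl3 has 1 probe with 1 spot, and those settings left its log2 ratios as reported. In all the alternatives and with 1 sample left out, Bcl3 was the single member with an unadjusted p under 0.05. The differences of Nfkb2, Nfkbib, Nfkbie and Nfkbiz kept their sign in these fits (Nfkb2 did not within the slide of pool 2, at -0.18), while 5 members near 0 did not. Nfkb1 was -0.0116 with processed signals, -0.000881 without background correction, -0.126 with median centring, -0.00378 with outlier spots kept, -0.0106 in the authors' deposited table, -0.0118 with the mean of probes and -0.00345 with slide as a fixed block. Rel was 0.0235 with median centring, 0.00955 in the authors' table and 0.00996 with the slide block. Rela was -0.0130 with processed signals and -0.0702 with median centring. Relb was -0.0338 with processed signals, -0.0894 without background correction, -0.0772 with median centring and -0.0645 in the authors' table. Nfkbia was 0.00261 with normexp offset 0, 0.000271 in the authors' table and 0.00238 with the slide block. With 1 sample left out, Nfkb1 ranged from -0.0728 to 0.0992, Rel from -0.0832 to 0.0436, Rela from -0.115 to 0.210, Relb from -0.155 to 0.193 and Nfkbia from -0.0406 to 0.0339. The cause was not tested.

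Over all genes, 1 passed as reported (1072 at an unadjusted p under 0.05, 725 lower and 347 higher), and 0 passed in 10 of the 15 alternatives: processed signals, no background correction, normexp offset 0, the tumour channel alone, the authors' table, the filter on 8 arrays, no filter, the slide block, trended robust variances and ordinary statistics. With 1 sample left out 0 to 2 passed, and 288 to 1274 were lower and 187 to 620 higher at an unadjusted p under 0.05. With median centring 451 were lower and 173 higher. Stat3 was -2.36 (limma adjusted p = 0.0280) without wild-type pool 1, -2.36 to -1.79 with 1 sample left out, and -1.29 and -2.68 within the slides of pools 1 and 3. No paired analysis was possible because floxed tumours carry no replicate number that matches a pool; the slide, which held both groups, was the block fitted. The number of arrays limits the precision, and Rel lay near background.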
